A study of Astyanax mexicanus with 12 samples.

Results

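The livers of Tinaja cavefish and surface fish larvae of Astyanax mexicanus, the Mexican tetra, were compared at 7 days post-fertilization (dpf). The comparison used 6 of the 12 RNA-seq libraries of the series, namely the 3 Tinaja and the 3 surface libraries of 7 dpf, and covered every gene with enough reads to be tested, 17540 of 27420 identifiers. The libraries were chosen by their labels alone. Surface fish come from rivers, and Tinaja is a blind cave population. The genotype labels read Surface and Tinaja, no transgene or drug is named, and the larvae of both groups were left without food until 7 dpf. The embryos of the series came from several parent tanks spawned together and mixed. The study describes the same kind of recirculating racks for both morphs and does not say whether the morphs shared a rack. Each library held the dissected livers of 40 larvae, so a library is a pool and not an animal, and a p-value here reflects variation among pools, some of which may be technical. The other 6 libraries, 3 of each morph at 5 dpf, were used as a comparison. They entered the same model, so that all 4 groups shared a common estimate of the spread. The study calls 5 dpf the fed state and 7 dpf the fasting state. Age and feeding state thus changed together between 5 and 7 dpf, and their parts cannot be told apart here.

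A larva that receives no food lives on its yolk, and once the yolk is used up it draws on the lipid and glycogen held in organs such as the liver. Hepatocytes, the main cells of the liver, take up fatty acids, store them in lipid droplets or oxidize them, and secrete most of the proteins of the blood plasma, which is why a small number of transcripts makes up much of liver mRNA. Cave populations of this species evolved where food is scarce and are known for resistance to starvation, and the study set out to compare how the livers of the morphs deal with lack of food. Age and time without food were the same in both groups by the calendar, but the yolk was not measured in these libraries. The study cites earlier work in which cavefish eggs held more yolk and visible yolk disappeared later than in surface fish. The time since the yolk was used up may thus have differed, and a difference in yolk cannot be told apart from a difference of morph. The identifiers in the table could not be matched to gene names, so the genes are described by their level and by the size of their difference, and the liver label could not be checked against liver markers here.

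The surface libraries held 23586408, 18472932 and 18537910 reads in genes (replicates 1, 2 and 3) and the Tinaja libraries 21433428, 13851663 and 12245678. Reads aligned outside genes made up 22.7%, 21.3% and 21.0% of all reads in surface fish and 23.1%, 25.6% and 27.4% in Tinaja. These shares did not overlap, and the exact two-sided permutation test gave p = 0.1, the smallest that 3 against 3 libraries allow. Unaligned reads made up 3.90% to 4.59% in surface fish and 4.57% to 7.74% in Tinaja (exact permutation p = 0.2). The 100 most abundant genes took 40.5% to 44.8% of the reads in surface fish and 37.6% to 45.0% in Tinaja, which overlapped (exact permutation p = 0.6). The 3 surface libraries correlated with each other at 0.947 to 0.953 on the log2 scale and the 3 Tinaja libraries at 0.937 to 0.971, and pairs across morphs ranged from 0.875 to 0.949. Tinaja replicate 1 stood apart from its group: its correlation with surface replicate 3, 0.949, was above those with Tinaja replicates 2 and 3, 0.945 and 0.937. For surface replicate 3 the same value was above its correlation with surface replicate 1, 0.947, and below that with surface replicate 2, 0.953. At equal depth, 18735 genes were detected in Tinaja replicate 1 and 18436 in surface replicate 3, against 19397 to 20604 in the other libraries of 7 dpf.

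At a false discovery rate of 0.1 in edgeR's quasi-likelihood test, 3210 genes differed between the morphs, 18.3% of those tested. Of these, 1858 (10.6% of the tested genes) were higher and 1352 (7.71%) were lower in Tinaja. The median gene among those higher was 3.30-fold higher (log2 fold change 1.72), and the median gene among those lower was 2.46-fold lower (log2 fold change -1.30), while the median of all tested genes was -0.01. The medians were 1.72 and -1.29 when genes with no read in 1 morph were set to the bound that 3 reads allow. Genes higher in Tinaja therefore outnumbered those lower, had the larger median difference, and were the less abundant, with a median level over the 6 libraries of 6.59 CPM (reads of a gene scaled to a common library size) against 11.5 CPM for the lower genes and 8.42 CPM for all tested genes. These levels are shares of reads and not levels per transcript length. In bulk liver RNA, fewer cells of a type and less RNA per cell cannot be told apart.

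The share of reads held by the called genes differed between the morphs as the calls require, and the values show how much of the liver mRNA was involved. The 1858 genes higher in Tinaja held 1.88%, 1.98% and 1.79% of the reads in genes in the surface libraries and 4.40%, 7.07% and 8.25% in the Tinaja libraries. The 1352 lower genes held 10.5%, 9.65% and 8.41% in surface fish and 3.83%, 3.80% and 3.30% in Tinaja. Both sets thus were a small part of the liver transcriptome by reads, and Tinaja replicate 1 had the lowest share of the higher genes among the Tinaja libraries. Its genes lay between the morphs on the scale of log2 of CPM plus 1. The median higher gene stood 0.80 units above the surface mean in Tinaja replicate 1, against 1.16 and 1.33 in replicates 2 and 3. The median lower gene stood at -0.86, -1.04 and -1.19.

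**Figure D1:**
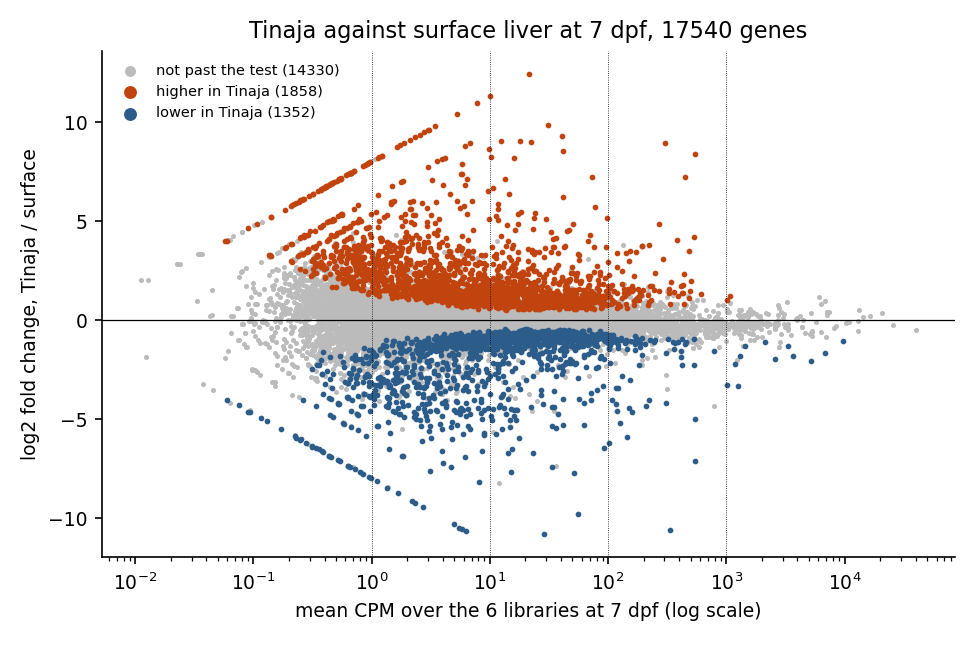
Log2 fold change of Tinaja over surface liver at 7 dpf (vertical axis) against the mean level over the 6 libraries in CPM (horizontal log axis), with 1 point for each of the 17540 tested genes, the 1858 higher genes in red, the 1352 lower genes in blue and dotted lines at the limits of the abundance classes. The straight lines of points at the upper and lower left are genes with few or no reads in 1 morph, and few coloured points lie at 1000 CPM and over.

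The count of calls depended on single libraries. Without Tinaja replicate 1 the test called 2763 genes higher and 2514 lower, among them 1708 of the 1858 and 1139 of the 1352. Without Tinaja replicate 2 it called 1060 and 534, and without Tinaja replicate 3 it called 816 and 352. Without surface replicate 1 the counts were 920 and 599, and without surface replicate 3 they were 1205 and 893. A core of 650 higher genes (35.0%) and 284 lower genes (21.0%) passed in every fit that left out 1 of the 6 libraries of 7 dpf. The core genes had larger median differences, 2.66 and -2.18 on the log2 scale. When the percentage of reads outside genes entered as a covariate, the counts were 1159 higher and 762 lower, and with the 6 libraries of 7 dpf alone in the model 981 and 515. The part of the unequal shares of reads outside genes in the counts was not tested further. Scaled by library totals in place of the trimmed mean of M values (TMM), the median of all genes moved to 0.19, and 1816 genes were higher and 930 lower, so that 66.1% of the calls were higher in place of 57.9%. No gene called in the main comparison was called in the opposite direction under any of the alternatives run. Genes that lost their call were not checked for a change of sign, and the alternatives share most of their libraries.

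By replicates, 88.8% of the genes called higher and 80.9% of those called lower had no overlap between the 3 Tinaja and the 3 surface libraries. Among all tested genes, 27.8% had groups that did not overlap, 15.6% with Tinaja above and 12.2% with Tinaja below surface fish. Another 2130 genes had groups that did not overlap and did not pass the test, and 467 called genes had groups that overlapped.

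The genes were then placed in 5 classes by their mean level over the 6 libraries: under 1 CPM, 1 to 10, 10 to 100, 100 to 1000, and 1000 CPM and over. The class of 1000 CPM and over held 196 genes and took 50.2%, 53.3% and 55.8% of the reads in surface fish and 55.8%, 48.7% and 46.4% in Tinaja, with no separation of the morphs (exact permutation p = 0.4). In this class, which holds the transcripts that dominate liver mRNA, 14 genes differed between the morphs (7.14%, against 18.3% of all tested genes), of which 2 were higher and 12 lower in Tinaja. None of the 10 most abundant genes passed the edgeR test, and of the 100 most abundant 7 did, all 7 lower in Tinaja. The median log2 fold change of those 100 genes was -0.22.

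The 12 genes of 1000 CPM and over that were lower in Tinaja had means of 1825 to 13059 CPM in surface fish and of 190 to 6189 CPM in Tinaja, and were 2.11-fold to 9.94-fold lower. In all 12 the groups did not overlap, and in all 12 Tinaja replicate 1 was the Tinaja library nearest to the surface libraries, as it was in 127 of all 196 genes of the class (64.8%). The groups did not overlap in 24 of the 196. The 2 genes that were higher differed by 1.996-fold, just under 2-fold, and by 2.32-fold. Library totals gave 27 calls in this class, 9 higher and 18 lower, and DESeq2 gave 21, 4 higher and 17 lower. The class had 41 calls without Tinaja replicate 1, 2 higher and 39 lower, 8 without surface replicate 3, 7 without Tinaja replicate 2 and 5 without Tinaja replicate 3. With this class held fixed, lower calls outnumbered higher ones in all 22 alternative fits, the 12 without 1 library included. When the class was instead set by the mean level at 5 dpf, 5 genes were higher and 5 lower of 108, so the excess of lower genes depends on the age that sets the class.

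Between 100 and 1000 CPM, 162 of 1169 genes differed (13.9%), 85 higher and 77 lower. Between 10 and 100 CPM, 1322 of 6784 genes differed (19.5%), 682 higher and 640 lower. The split between the directions in these classes depended on the setting. Without Tinaja replicate 1, lower genes prevailed in both, with 106 higher and 302 lower between 100 and 1000 CPM and 1028 higher and 1454 lower between 10 and 100 CPM. Between 100 and 1000 CPM the calls numbered 69 without Tinaja replicate 3, 83 without Tinaja replicate 2 and 84 without surface replicate 1. Between 10 and 100 CPM they numbered 457, 588 and 606 without the same libraries, and 759 without surface replicate 3. Library totals gave 674 higher and 441 lower between 10 and 100 CPM and 137 and 107 between 100 and 1000 CPM, and the fit without Tinaja replicate 3 gave 310 and 147 and 49 and 20. With the classes set by the level at 5 dpf, 713 were higher and 593 lower between 10 and 100 CPM and 103 and 46 between 100 and 1000 CPM. Of the 22 alternative fits, higher calls were the more numerous in 20 for each of these classes.

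At low levels most calls were higher in Tinaja. Between 1 and 10 CPM, 779 genes were higher and 508 lower of 7022 (18.3%), and under 1 CPM, 310 were higher and 115 lower of 2369 (17.9%). The share of genes higher in Tinaja fell from 13.1% under 1 CPM through 11.1%, 10.1% and 7.27% to 1.02% at 1000 CPM and over. The share lower was 4.85%, 7.23%, 9.43%, 6.59% and 6.12% in the same order, highest between 10 and 100 CPM. These orders did not hold in all settings. With library totals, 9.15% were lower between 100 and 1000 CPM and 9.18% at 1000 CPM and over, both above the share between 10 and 100 CPM, and 11.7% were higher between 100 and 1000 CPM against 9.94% between 10 and 100 CPM. Without Tinaja replicate 1, 25.8% were lower between 100 and 1000 CPM and 21.4% between 10 and 100 CPM. The calls under 1 CPM numbered 555 without Tinaja replicate 1 and 173, 202 and 229 without Tinaja replicate 3, surface replicate 1 and Tinaja replicate 2, and those between 1 and 10 CPM numbered 1791, 464, 617 and 687 in the same order. In both low classes higher calls outnumbered lower ones in all 22 alternative fits, without Tinaja replicate 1 at 435 against 120 and 1192 against 599. The filter asked for enough reads in at least 3 of the 12 libraries, whatever their morph or age. A gene under 1 CPM at 7 dpf may thus have entered through the morph in which it is read, or through the libraries of 5 dpf. The counts under 1 CPM describe only genes that reached this filter. The libraries of 5 dpf are outside the contrast of 7 dpf but entered the same filter and model. Classes set by them are therefore not an independent check. With the classes set by the mean level at 5 dpf, the shares called were 21.0%, 18.1%, 18.7%, 13.4% and 9.26% from the lowest class to the highest. By direction, 12.8%, 10.7%, 10.2%, 9.24% and 4.63% were then higher in Tinaja and 8.25%, 7.41%, 8.48%, 4.13% and 4.63% lower, so that the share higher again fell with level, over a smaller range.

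**Figure D2:**
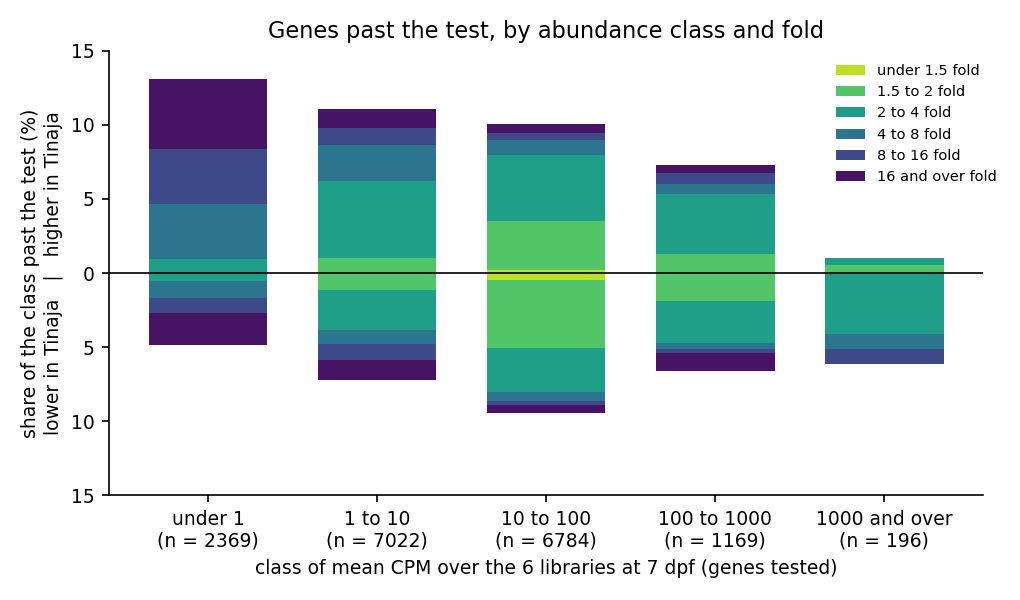
Share of the tested genes called higher (bars upward) and lower (bars downward) in Tinaja at 7 dpf, as percent of each of 5 classes of mean CPM, with colours for the fitted fold. The share higher falls from 13.1% under 1 CPM to 1.02% at 1000 CPM and over, the share lower is highest at 10 to 100 CPM with 9.43%, and folds of 16 and over take most room in the lowest class.

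The size of the differences followed the level as well. The median called gene higher in Tinaja differed by 3.45 log2 units under 1 CPM, by 1.80 between 1 and 10 CPM, by 1.21 between 10 and 100 CPM and by 1.47 between 100 and 1000 CPM, while at 1000 CPM and over the higher genes were only 2. The median lower gene stood at -3.84, -1.77, -0.97, -1.19 and -1.79 from the lowest class to the highest. The medians depend on the standard error of the log2 fold change, since a small difference cannot pass the test where the error is large. The median standard error was 0.85 under 1 CPM, 0.42 between 1 and 10 CPM, 0.28 between 10 and 100 CPM, 0.34 between 100 and 1000 CPM and 0.37 at 1000 CPM and over. The precision was therefore best in the middle class and did not improve further with more reads.

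On the scale of log2 of CPM plus 1, the median spread between pools was larger in Tinaja than in surface fish in every class, by the most above 100 CPM. The added 1 compresses the spread of genes at low levels. The classes are therefore not directly comparable, and in the low classes a higher level in 1 morph by itself raises the spread there. The median standard deviation over the 3 libraries was 0.58 in Tinaja and 0.29 in surface fish at 1000 CPM and over, and 85.7% of the 196 genes had the larger standard deviation in Tinaja. Between 100 and 1000 CPM the medians were 0.51 and 0.27, with 75.7% larger in Tinaja, and between 10 and 100 CPM they were 0.35 and 0.23, with 66.2%. Between 1 and 10 CPM they were 0.35 and 0.31, with 55.2%, and under 1 CPM 0.28 and 0.21, with 59.0%. Tinaja replicate 1 was the Tinaja library nearest to the surface libraries in 63.8% of the genes called higher and 55.6% of those called lower. Among all genes, called or not, the share was 55.9% between 100 and 1000 CPM and 64.8% at 1000 CPM and over. The share of the higher genes thus lay within the range of these classes, and that of the lower genes lay just below it. The share over all genes of the lower classes is not given here. These shares are descriptions of 3 pools a morph, and genes of 1 library are not independent.

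Of the 17540 genes, 55.4% differed by less than 1.5-fold between the morphs and 75.6% by less than 2-fold. An interval of 95% confidence that lay wholly inside 2-fold in either direction was found for 5145 genes (29.3%), so that for these the data limit the difference approximately. The standard error behind the interval was back-calculated from the fitted log2 fold change and the F statistic of the test. This share was 47.0% between 10 and 100 CPM, 33.9% between 100 and 1000 CPM, 24.5% at 1000 CPM and over, 21.4% between 1 and 10 CPM and 0.295% under 1 CPM. Among the 100 most abundant genes, 27 had such an interval. For genes that did not pass the test and whose interval reached past 2-fold, the data do not exclude a difference of that size. In all, 4287 genes (24.4%) had a fitted difference of at least 2-fold, and 1844 of them (43.0%) did not pass.

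Among the called genes, 1533 were at least 2-fold higher and 910 at least 2-fold lower in Tinaja, 8.74% and 5.19% of all tested genes. At least 2-fold were 82.5% of the higher and 67.3% of the lower genes. The split differed with size. In the range of 1.5-fold to 2-fold, 309 genes were higher and 410 lower, from 2-fold to 4-fold 734 and 451, from 4-fold to 8-fold 341 and 140, from 8-fold to 16-fold 210 and 123, and at 16-fold and over 248 and 196. The share of higher genes among the calls was 43.0% from 1.5-fold to 2-fold, 61.9% from 2-fold to 4-fold, 70.9% from 4-fold to 8-fold, 63.1% from 8-fold to 16-fold and 55.9% at 16-fold and over, highest in the middle range. edgeR's test against a 2-fold threshold (glmTreat), which asks that a difference exceed 2-fold beyond its error, called 391 genes higher (2.23%) and 157 lower (0.895%), 3.12% of the tested genes together, with medians of 3.74 and -3.72 log2 units (3.69 and -3.54 with genes at no read set to the bound). Of these 391 and 157 genes, 99.2% and 94.9% had groups that did not overlap. Without Tinaja replicate 3, surface replicate 1 and Tinaja replicate 1 the glmTreat counts of higher genes were 214, 219 and 596. The counts of lower genes were 72, 97 and 236 without the same libraries, 86 without Tinaja replicate 2 and 313 without surface replicate 3. The counts of genes at least 2-fold higher were 770, 871 and 992, and those at least 2-fold lower 315, 525 and 490, without Tinaja replicate 3, surface replicate 1 and Tinaja replicate 2, and the latter was 1479 without Tinaja replicate 1.

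The 248 genes at least 16-fold higher and the 196 at least 16-fold lower in Tinaja differed in how many libraries carried them. Of the 248 higher genes, 229 (92.3%) had groups that did not overlap, against 93 of the 196 lower genes (47.4%). In 12 of the higher genes (4.84%) and 58 of the lower genes (29.6%), a single library held at least 80% of the summed CPM of the higher morph. For the 58 lower genes that library was surface replicate 1 in 41, surface replicate 2 in 13 and surface replicate 3 in 4. The pattern was present also from 8-fold to 16-fold, where 7 higher genes (3.33%) and 25 lower genes (20.3%) were held by 1 library. Without surface replicate 1, 111 genes were at least 16-fold lower, without Tinaja replicate 2 they were 105, and without Tinaja replicate 3 they were 75. In every fit that left out 1 of the 6 libraries, 167 of the 248 higher genes (67.3%) and 62 of the 196 lower genes (31.6%) kept their call.

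Across all sizes, 85 lower genes and 20 higher genes were held by a single library in this sense, and surface replicate 1 held 60 of the 85. The summed level of those 60 genes was 10767 CPM in surface replicate 1, 878 CPM in surface replicate 2 and 122 CPM in surface replicate 3, against 62.0, 139 and 242 CPM in Tinaja replicates 1, 2 and 3. The sum in surface replicate 3 was thus below that in Tinaja replicates 2 and 3, and in 52 of the 60 genes at least 1 Tinaja library lay above a surface library. At 5 dpf the same genes summed to 420, 323 and 448 CPM in the surface libraries and to 127, 248 and 156 CPM in the Tinaja libraries, with no library near the level of surface replicate 1 at 7 dpf. Of the 60 genes, 53 were lower in Tinaja at 5 dpf by their sign and 5 passed the test there. Of all genes called lower at 7 dpf, 80.1% had the same sign at 5 dpf and 25.2% passed in the same direction. Of all tested genes, 7.22% were called lower at 5 dpf. Since the identifiers carry no names, these genes could not be compared with markers of tissues next to the liver here.

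**Figure D3:**
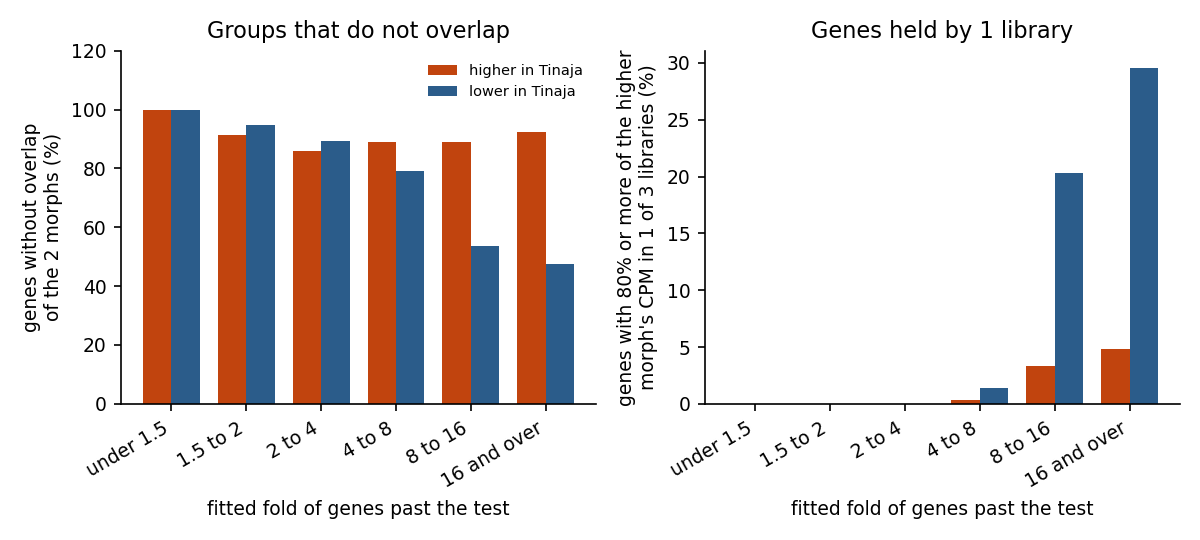
Genes called at 7 dpf by fitted fold (horizontal axes), higher in Tinaja in red and lower in blue. Left, the percent of genes whose 3 Tinaja and 3 surface libraries did not overlap, 92.3% and 47.4% at 16-fold and over. Right, the percent of genes with at least 80% of the higher morph's CPM in 1 of its 3 libraries, 4.84% and 29.6% there.

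Large differences among abundant genes were few. At 100 CPM and over, 6 genes were at least 16-fold higher and 14 at least 16-fold lower in Tinaja. The 6 higher genes had means of 517 to 1076 CPM in Tinaja and of 1.23 to 55.4 CPM in surface fish, 5 of them had groups that did not overlap, and 2 were held by 1 library. The 14 lower genes had means of 200.3 to 1077 CPM in surface fish and of 0.438 to 33.0 CPM in Tinaja, 6 of them had groups that did not overlap, and 8 were held by 1 library. Of all 1169 genes between 100 and 1000 CPM, 291 had groups that did not overlap and 13 were held by 1 library. All 20 had the same sign at 5 dpf, near the 94.8% and 95.4% of all genes at least 16-fold higher and lower. Of all 1169 genes, 601 had the same sign. At 5 dpf 3 of the 6 and 3 of the 14 passed the test in the same direction, against 61.7% and 40.8% of all genes at least 16-fold higher and lower.

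Some genes were read in 1 morph alone. No read was counted in the 3 surface libraries for 96 tested genes, and 74 of them were called higher in Tinaja. Of the 74, 63 were read in every Tinaja library, 40 had a Tinaja mean of at least 1 CPM and 4 of at least 10 CPM. No read was counted in the 3 Tinaja libraries for 55 genes, of which 41 were called lower. Of the 41, 35 were read in every surface library, 20 had a surface mean of at least 1 CPM and 3 of at least 10 CPM. Such genes could reach the filter only through the other morph or through the libraries of 5 dpf. That they were read in every library of the other morph is thus partly set by the filter. At 5 dpf, 24 of the 74 genes again had no read in surface fish and 45 had at most 3, and 17 of the 41 had none in Tinaja and 29 at most 3. In the same direction at 5 dpf were called 49 of the 74 and 33 of the 41. Of all genes at least 16-fold higher and lower, 61.7% and 40.8% were so called. Of all tested genes, 8.77% were called higher and 7.22% lower at 5 dpf. The mean of the other morph was at least 4-fold above a floor of 3 reads over the group without reads in 70 of the 74 and 35 of the 41. Another 120 genes called higher had 1 to 3 reads in surface fish, and 41 called lower had 1 to 3 reads in Tinaja. The fitted folds of all these genes depend on the prior count of the fit, so their place among the largest sizes is uncertain. A count of 0 is a statement of reads assigned to the gene model. Reads that match several places were set aside, and sequence differences between the morphs and the reference genome were not examined, so their part in these counts was not tested.

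Among genes with a mean log2 CPM of at least 3, at least 2-fold, and without overlap of the groups, the most abundant and the most changed gene in each direction are given with their values. The most abundant higher gene was ENSAMXG00000042212, with 322, 884 and 751 CPM in surface replicates 1 to 3 and 1730, 1208 and 1596 CPM in Tinaja replicates 1 to 3. All Tinaja libraries lay above all surface libraries, and Tinaja replicate 1 was the highest. The means were 652 ± 293 and 1511 ± 271 CPM (SD, n = 3). Tinaja was higher by 1.21 log2 units, with a standard error of 0.43 (edgeR adjusted p = 0.0885). The call rested on the full set of libraries: it was lost in 8 of 12 fits without 1 library and in 4 of 10 other alternatives, with adjusted p from 0.028 to 0.244. Of the libraries of 7 dpf, it was lost without surface replicate 1 (0.244), surface replicate 3 (0.138), Tinaja replicate 1 (0.112), Tinaja replicate 2 (0.128) or Tinaja replicate 3 (0.209), and of those of 5 dpf without surface replicates 2 (0.108) or 3 (0.113) or Tinaja replicate 1 (0.117). At 5 dpf the difference was 0.84 with a standard error of 0.42 (edgeR adjusted p = 0.235).

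The higher gene with the largest difference was ENSAMXG00000032086, with no read in any of the 3 surface libraries and 15.5, 62.3 and 51.3 CPM in Tinaja replicates 1 to 3. It was higher in Tinaja (edgeR adjusted p = 0.0012), and the Tinaja mean was 715-fold above a floor of 3 reads over the surface group. This ratio leaves out the spread among the Tinaja pools. At 5 dpf the surface libraries again had no read and the Tinaja libraries 28.5, 14.8 and 34.2 CPM (edgeR adjusted p = 0.00183). The Tinaja mean there was 407-fold above the same kind of floor. The call passed in all alternatives and in all 12 fits without 1 library, with adjusted p from 5.75e-17 to 0.0136. The gene thus passed at both ages, which share no library.

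The most abundant lower gene was ENSAMXG00000006054, the gene of rank 11 by level, with 10250, 13147 and 15778 CPM in surface replicates 1 to 3 and 9808, 5073 and 3687 CPM in Tinaja replicates 1 to 3. The groups did not overlap, but surface replicate 1 and Tinaja replicate 1 lay next to each other. The means were 13059 ± 2765 and 6189 ± 3210 CPM (SD, n = 3). The fitted difference was -1.08 log2 units, with a standard error of 0.38 (edgeR adjusted p = 0.0901). Of the 12 fits without 1 library it passed in 1, that without Tinaja replicate 1 (-1.57, adjusted p = 0.0132), and adjusted p ranged from 0.0132 to 0.290 over all alternatives. At 5 dpf the means were 2780 ± 472 CPM in surface fish and 2551 ± 559 CPM in Tinaja (log2 fold change -0.12, edgeR adjusted p = 0.877). The test of the change in the difference between ages gave -0.95 with adjusted p = 0.390.

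The lower gene with the largest difference was ENSAMXG00000006074, with 14.0, 289 and 2.69 CPM in surface replicates 1 to 3 and 0, 0.674 and 0.764 CPM in Tinaja replicates 1 to 3. Every surface library lay above every Tinaja library, but surface replicate 2 held most of the reads. The fitted difference was -7.72 log2 units, with a standard error of 2.18 (edgeR adjusted p = 0.0488), on 4707 reads in surface fish and 20 in Tinaja. Without surface replicate 2 it was -4.12 with adjusted p = 0.149, without Tinaja replicates 2 or 3 adjusted p was 0.139 and 0.163, and over all alternatives adjusted p ranged from 0.000389 to 0.364. At 5 dpf it was -3.91 with a standard error of 1.78 (edgeR adjusted p = 0.191), where a single surface library reached 79.1 CPM.

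**Figure D4:**
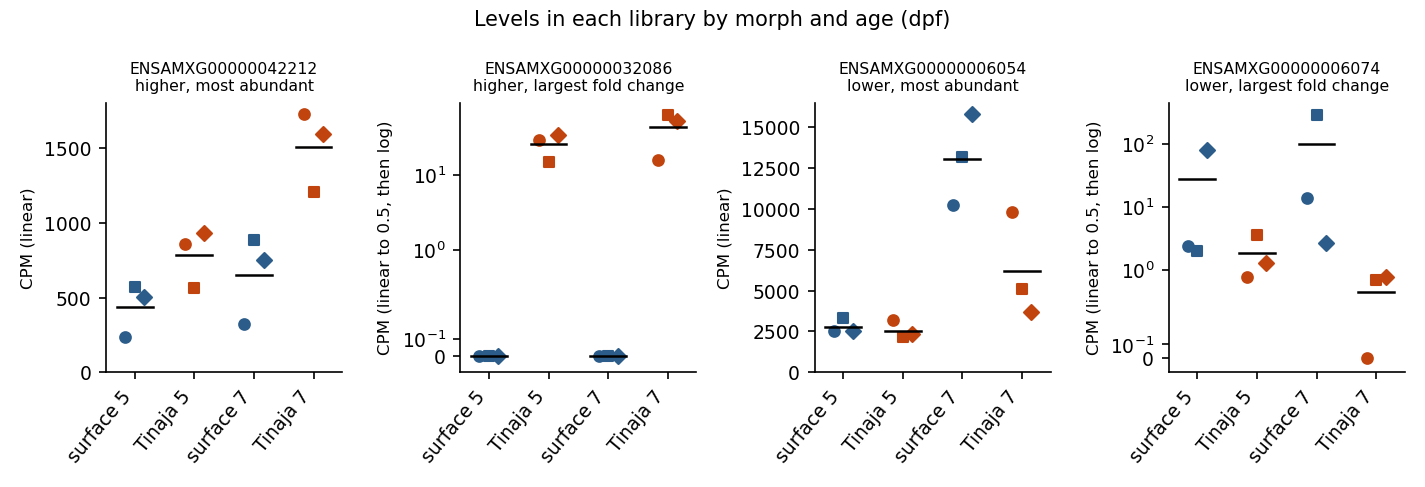
CPM of the 4 named genes in each library by morph and age, with blue points for surface fish, red for Tinaja, circles, squares and diamonds for replicates 1, 2 and 3 and a line at the mean. The axes of ENSAMXG00000042212 and ENSAMXG00000006054 are linear, and those of ENSAMXG00000032086 and ENSAMXG00000006074 are linear up to 0.5 CPM and logarithmic above. At 7 dpf the groups do not overlap in any of the 4 genes.

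The same contrast at 5 dpf, in libraries of other pools, called 2804 genes (16% of those tested), 1538 higher (8.77%) and 1266 lower (7.22%). Of the 1858 genes higher in Tinaja at 7 dpf, 1529 (82.3%) had the same sign at 5 dpf and 665 (35.8%) passed the test in the same direction. Of the 1352 lower genes, 1083 (80.1%) had the same sign and 341 (25.2%) passed. Among all tested genes 60.5% had the same sign. Seen from 5 dpf, the shared calls were 43.2% of the 1538 higher and 26.9% of the 1266 lower genes. The 1006 shared calls (31.3% of those of 7 dpf) compare with 36 calls in opposite directions. The shared calls numbered 597 without Tinaja replicate 3 of 7 dpf, 662 without surface replicate 1 of 7 dpf, 595 without Tinaja replicate 1 of 5 dpf, and 623 and 670 without surface replicates 3 and 2 of 5 dpf.

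At 5 dpf the median of the genes higher at 7 dpf was 0.83 and that of the lower genes -0.56, both nearer to 0 than at 7 dpf, where the genes were selected. Across genes, the log2 fold changes at both ages had a Pearson r of 0.62 and a Spearman rho of 0.42 over the 17540 tested genes. These points share the scaling and the dispersion estimate, and genes are not independent replicates, so no p is given. Per class, r was 0.66 under 1 CPM, 0.66 between 1 and 10 CPM, 0.56 between 10 and 100 CPM, 0.58 between 100 and 1000 CPM and 0.61 at 1000 CPM and over.

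The genes with the largest differences at 7 dpf had the same sign at 5 dpf more often than the called genes as a whole. Of the genes at least 16-fold higher in Tinaja, 94.8% had the same sign and 153 (61.7%) passed the test at 5 dpf, with a median of 3.38 log2 units there. Of those at least 16-fold lower, 95.4% had the same sign and 80 (40.8%) passed, with a median of -2.69. Among the glmTreat genes 241 of the 391 higher (61.6%) and 106 of the 157 lower (67.5%) passed in the same direction at 5 dpf. By level, the share of calls that passed at 5 dpf in the same direction was 42.1% under 1 CPM, 32.9% between 1 and 10 CPM, 26.7% between 10 and 100 CPM, 29.6% between 100 and 1000 CPM and 21.4% at 1000 CPM and over (3 of 14). Of all tested genes in these classes, 20.6%, 15.8%, 15.0%, 14.3% and 13.8% were called at 5 dpf in either direction, so this background also fell with level. Of the 12 most abundant lower genes, 9 had the same sign at 5 dpf and 2 passed. Of the core genes, 368 of the 650 higher (56.6%) and 151 of the 284 lower (53.2%) passed.

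**Figure D5:**
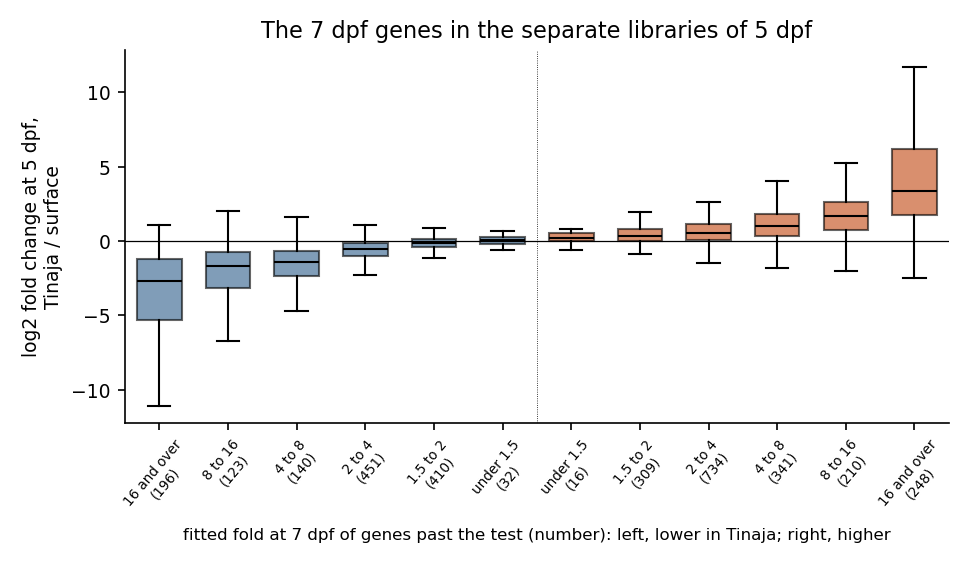
Log2 fold change of Tinaja over surface liver at 5 dpf (vertical axis) for the genes called at 7 dpf, by direction and fitted fold at 7 dpf (horizontal axis, number of genes in brackets). Boxes span the quartiles with the median as a line, whiskers reach to 1.5 times the box length and points beyond are not drawn. The median at 5 dpf is -2.69 for genes at least 16-fold lower and 3.38 for genes at least 16-fold higher.

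A call at 7 dpf without one at 5 dpf does not show that the morphs came to differ between the ages. This was the case for 2168 genes, of which 1606 (74.1%) had the same sign at 5 dpf. The 1174 higher genes among them had medians of 1.57 at 7 dpf and 0.37 at 5 dpf, and the 994 lower genes of -1.14 and -0.33. The test of the difference itself, the change of the morph contrast from 5 to 7 dpf, passed in 8 genes (0.0456% of those tested), with 2769 genes (15.8%) at an unadjusted p under 0.05. Among the 2168 genes, 915 had such an unadjusted p. These genes were selected by a call at 7 dpf and none at 5 dpf, which by itself favours a small p here. With 15.8% of all tested genes at such a p, the small number of adjusted calls does not show that the morph difference stayed the same. DESeq2 called 835 genes in this test. edgeR called 1484 without Tinaja replicate 1 of 7 dpf, 555 without Tinaja replicate 3 of 5 dpf, 13 without surface replicate 3 of 7 dpf, 5 in each of the fits without surface replicates 1 or 3 of 5 dpf, Tinaja replicate 1 of 5 dpf or surface replicates 1 or 2 of 7 dpf, and 4 without surface replicate 2 of 5 dpf.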

How the data were processed

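Per the submitters' notes, the authors sequenced stranded polyA libraries, aligned them to astMex_2.0 (Ensembl 102 annotation) using STAR 2.7.3a and quantified them using RSEM 1.3.0. The deposited table gives unnormalized counts as whole numbers, 12 libraries by 27420 identifiers, plus 4 summary lines as STAR's gene counting produces. No source used here gives the strand setting of the counting, so overlapping genes on opposite strands, like near-identical paralogues, may have lost reads or had them assigned to each other. The summary lines stayed out of library sizes and tests. Their shares of reads outside genes and unaligned are given in the report.

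From these counts, genes were kept by filterByExpr (17540 genes), scaled by TMM and tested with edgeR 4.0.16 (quasi-likelihood F test, robust, R 4.3.3) in 1 model of 4 groups and 12 libraries with 8 residual degrees of freedom, with Benjamini-Hochberg adjustment over all tested genes and a threshold of 0.1. glmTreat tested against 2-fold. Standard errors in edgeR are approximate: each is the absolute log2 fold change divided by the square root of the F statistic. They are not reliable for genes with no read in 1 group. Levels are TMM-scaled CPM. Depth at 7 dpf was 12245678 to 23586408 reads in genes. Library shares were compared by exact permutation tests. Genes named in the text are the most abundant and the most changed in each direction among called genes of at least 2-fold whose groups did not overlap and whose mean log2 CPM reached 3. Alternatives were DESeq2 1.42.0, limma-voom (limma 3.58.1), other scaling and filters, thinned counts, a covariate, a replicate block, the 6 libraries of 7 dpf alone, and each library left out. The classes, sizes, tests and the named-gene rule were chosen with earlier results of these data known. No identifier (0) matched a gene name in the RefSeq table at hand, so pathways, markers and positions were not analysed here. Replicate pools deposited as separate libraries differed by more than sampling noise, and none was merged. The procedure was run on simulated data in which only genes with a mean log2 CPM of at least 3 were changed. Recovery of changed genes at lower levels was not tested.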

Additional observations from a re-analysis of the deposited data

Results flagged for a closer look

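The test of a change in the morph difference between 5 and 7 dpf passed in 8 genes in edgeR, against 2769 (15.8% of those tested) with an unadjusted p under 0.05. In 6 genes the difference of Tinaja from surface fish was more positive at 7 dpf and in 2 it was more negative, by 2.06 to 5.80 log2 units. In 6 of the 8 the sign differed between the ages. At 7 dpf 5 of them were called higher and 1 lower in Tinaja, and at 5 dpf 2 were called higher and 5 lower. None of the 8 was called in the same direction at both ages. The count was 0 with a covariate for reads outside genes, where 874 genes had an unadjusted p under 0.05, and it was 835 in DESeq2. The share of reads outside genes was higher in Tinaja at 7 dpf and mostly higher in surface fish at 5 dpf. The part of this imbalance in the count was not tested further.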

How the results depend on the processing

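None of the genes called at 7 dpf was called in the opposite direction under the 10 alternatives or the 12 fits without 1 library. These fits share most of their libraries, so this is a weak check. The counts moved, and the cause was not tested. With the 6 libraries of 7 dpf alone in the model, 981 genes were higher and 515 lower, 900 and 420 at least 2-fold, 141 and 51 at least 16-fold, and 234 and 84 by glmTreat. The calls in the 5 classes from the lowest to the highest were then 91, 607, 693, 98 and 7. With a covariate for the percentage of reads outside genes, the counts were 1159 and 762, 932 and 505 at least 2-fold, 111 at least 16-fold lower, and 241 and 90 by glmTreat, with 224, 688 and 851 calls under 1, from 1 to 10 and from 10 to 100 CPM. Then 592 genes were called in the same direction at both ages. The test of a change in the difference between ages passed in 0 genes, with 874 at an unadjusted p under 0.05. limma-voom gave 126 and 47 genes beyond 2-fold, 67 at least 16-fold lower, and 237 and 834 calls in the 2 lowest classes. Library totals gave 580 genes at least 2-fold lower and 244 and 27 calls in the 2 highest classes. DESeq2 gave 245 calls between 100 and 1000 CPM. Thinned counts gave 222 calls under 1 CPM. The count of genes that passed the test of a change between ages was 835 in DESeq2, 15 with no filter and 14 with a filter of 0.5 CPM.

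Over the fits without 1 library, genes higher numbered 816 to 2763 and lower 352 to 2514. At least 2-fold they numbered 770 to 2200 and 315 to 1479, and at least 16-fold 193 to 308 and 75 to 257. glmTreat gave 214 to 596 higher and 72 to 313 lower. The test of a change between ages passed in 4 to 1484 genes, and 595 to 1327 were called in the same direction at both ages. From the lowest class to the highest, calls numbered 173 to 555, 464 to 1791, 457 to 2482, 69 to 408 and 5 to 41. Genes with an interval inside 2-fold numbered 3837 to 5256.

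Libraries of the same replicate number did not deviate together at 7 dpf, but 3 libraries a group are too few to settle whether the numbers pair them. The correlation of deviations from the group means between same-numbered libraries at 7 dpf was -0.16, -0.02 and -0.20, and ranged from -0.30 to 0.51 over all 18 same-numbered pairs. With the number as a replicate block, 1394 genes were higher and 801 lower, with 606 at least 2-fold lower, 102 at least 16-fold lower and 266 calls under 1 CPM. Precision was lowest in the lowest class, where the median standard error was 0.85 log2 units and 7 of 2369 genes had an interval inside 2-fold. The part of depth in this was not tested.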
